A study of Mus musculus with 4 samples.

Results

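The genes described here are 10 modulators of Wnt signaling in mouse Müller glia, *Dkk3*, *Sfrp1*, *Sfrp2*, *Sfrp5*, *Fzd4*, *Fzd5*, *Lrp6*, *Axin2*, *Rnf43* and *Znrf3*, chosen by name from the 24322 gene symbols of the expression tables. They were chosen with their values in control and *Rax* iCKO (*Rax* tamoxifen-induced conditional knockout) cells in view, so the difference between the genotypes is given for them as a description and was not tested. RNA-seq was carried out on mTFP-positive cells sorted by FACS from whole retinas of 4 mice, 2 control and 2 *Rax* iCKO, with 1 library per mouse. Control mice carried 1 Raxflox allele and 1 WT allele, and *Rax* iCKO mice were Raxflox/flox. All 4 mice also carried the Rlbp1-CreERT2 and R26-CAG-LoxP-mTFP1 transgenes, all received tamoxifen at postnatal day 4 and were harvested at postnatal day 14, and all bear the label 129S6. The controls therefore shared the Cre, the tamoxifen and a floxed *Rax* allele. Cre was driven by a promoter fragment of *Rlbp1*, a Müller glial gene that the pigment epithelium also uses, and the study describes recombination in pigment epithelium as well.

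Expression was given as FPKM, the reads on a gene scaled by exon length and by the mapped reads of the library, which allows the levels of genes of unequal length to be set side by side. The depth was estimated from the step that 1 read makes in the low values, at 12730000 mapped reads in control 1, 9280000 in control 2, 9440000 in *Rax* iCKO 1 and 9310000 in *Rax* iCKO 2. The mouse numbers in the titles fall into 2 runs, each with 1 mouse of each genotype. Control 1 and *Rax* iCKO 1 are called run A here, and control 2 and *Rax* iCKO 2 run B, and the labels do not say what the mice of a run share. *Rax*, the targeted gene, was at 189.1 and 181.4 FPKM in the controls and at 111.4 and 98.4 FPKM in *Rax* iCKO, a difference in log2(FPKM + 1) of -0.76 within run A and -0.88 within run B. All 12 Müller glial markers examined had a mean above 1 FPKM, with *Apoe* the most abundant at 4342 FPKM, so the markers of the labeled cell type were present. All 8 rod and all 7 bipolar markers also had a mean above 1 FPKM, so these markers do not show how pure the sort was. The 7 bipolar cell markers summed to 3068 and 4236 FPKM in control 1 and *Rax* iCKO 1 and to 8237 and 6725 FPKM in control 2 and *Rax* iCKO 2, most of it *Pcp2*. Between the genotypes, 3 of the 7 bipolar markers were higher in *Rax* iCKO without overlap and 0 lower, with *Trpm1* at 178 and 213 FPKM in the controls and at 293 and 327 FPKM in *Rax* iCKO, and a median log2 difference of 0.31 over the list. The 8 rod markers summed to 1498 and 1500 FPKM in the controls and to 1019 and 876 FPKM in *Rax* iCKO. Of the 8, 7 were lower without overlap. Of the 12 Müller glial markers, 5 were lower in *Rax* iCKO without overlap and 0 higher, with a median log2 difference of -0.33. Among all genes with a mean of at least 1 FPKM, 14.1% were lower without overlap and 15.4% higher. The part of these cell types in the genotype differences below was not tested. In sorted bulk cells, fewer cells of a type and less RNA per cell cannot be told apart.

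Wnt proteins are secreted ligands that bind a Frizzled receptor and the co-receptor Lrp5 or Lrp6, which stops the Axin and Apc destruction complex from degrading β-catenin, and β-catenin then activates target genes with Tcf/Lef factors. The pathway is held in check outside the cell by secreted Frizzled-related proteins and Dickkopf proteins, inside the cell by Axin2, and at the membrane by the ubiquitin ligases Rnf43 and Znrf3, which remove Frizzled from the surface unless R-spondins and their Lgr receptors withdraw them. In the vertebrate eye the pathway is known for its roles in the ciliary margin, in retinal vessels and in the return of Müller glia to the cell cycle after injury.

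*Rnf43* and *Sfrp2* were the 2 of the 10 genes whose control and *Rax* iCKO libraries did not overlap, and their promoter windows are printed for that reason. Each is the 250 bases before an annotated start on the plus strand, from RefSeq on GRCm38.p6, with every TAAT in either orientation, the homeodomain core, in capitals. The first *Rnf43* window is chr11:87662837-87663086 and lies in an exon of a noncoding retained-intron transcript of *Rnf43* in GENCODE. The second *Rnf43* window is chr11:87699647-87699896, inside the gene and in no GENCODE exon. The *Sfrp2* window is chr3:83766071-83766320, inside the span that RefSeq gives the gene and in no GENCODE exon.
*Rnf43*, first start: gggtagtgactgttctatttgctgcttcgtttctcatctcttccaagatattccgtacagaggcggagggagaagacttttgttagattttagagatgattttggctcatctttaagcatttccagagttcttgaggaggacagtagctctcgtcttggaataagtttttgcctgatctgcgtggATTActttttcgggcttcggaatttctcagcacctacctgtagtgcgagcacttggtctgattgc
*Rnf43*, second start: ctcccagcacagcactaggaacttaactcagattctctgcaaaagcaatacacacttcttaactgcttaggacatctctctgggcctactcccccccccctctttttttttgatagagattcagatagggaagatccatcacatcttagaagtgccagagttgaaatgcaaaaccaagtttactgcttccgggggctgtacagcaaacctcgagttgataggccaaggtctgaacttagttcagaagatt
*Sfrp2*: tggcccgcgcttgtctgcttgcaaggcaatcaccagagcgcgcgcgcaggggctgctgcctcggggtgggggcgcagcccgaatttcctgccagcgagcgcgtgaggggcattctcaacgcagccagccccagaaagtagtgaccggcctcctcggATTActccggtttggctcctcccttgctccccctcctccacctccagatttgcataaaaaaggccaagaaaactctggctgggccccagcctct
Windows of 250 bases were held for 6 of the 10 genes, in 7 entries, the others being those of *Fzd4*, *Fzd5*, *Axin2* and *Sfrp5*. TAATT, the *Rax*-binding sequence predicted by the study, was searched on both strands and matched in 0 of the 7 entries, against 25% of 32851 promoter windows of the same length. The study found its predicted sites in a longer stretch before *Socs3*, so sites farther from these starts were not looked for. GC content ran from 44.4% in the first *Rnf43* window to 76.4% in *Fzd5* and was not matched in the comparison. TAAT, which overlaps every TAATT, matched once in *Rnf43*, 65 bases before the first start, once in *Sfrp2*, 94 bases before the start, and at 2 places in *Fzd5*, against 54.9% of all windows. CTTTGA, a Tcf/Lef core, matched in 0 of the 7 entries, against 13.8% of all windows. A match or its lack describes these letters in these windows and nothing about binding.

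Of the ubiquitin ligases, *Rnf43* was near the bottom of the set in level and *Znrf3* near the top. *Rnf43* (chr11:87663087-87735539, plus strand) was at 0.344 and 0.236 FPKM in control 1 and control 2, at 0.0773 FPKM in *Rax* iCKO 1 and at 0 in *Rax* iCKO 2. The *Rax* iCKO libraries were the 2 lowest, without overlap, with differences in log2(FPKM + 1) of -0.32 within run A and -0.31 within run B, the latter resting on the value of 0. The means were 0.290 ± 0.0763 (SD, n = 2) FPKM in control and 0.0386 ± 0.0546 (SD, n = 2) FPKM in *Rax* iCKO, a ratio of 0.133. On the log2(FPKM + 1) scale, which understates the change of low genes, the difference was -0.31 (standard error 0.10), and with a pseudocount of 0.1 in place of 1 it was -1.54.

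These *Rnf43* levels rest on few reads. With the longest coding transcript of *Rnf43*, of 4310 bases, they come to 18 reads in control 1, 9 reads in control 2, 3 reads in *Rax* iCKO 1 and 0 reads in *Rax* iCKO 2. The count of 0 in *Rax* iCKO 2 allows up to 3 reads, which is 0.0784 FPKM at its depth and close to the value in *Rax* iCKO 1. With the shortest coding transcript, of 2640 bases, they would be 10.7, 5.3, 1.8 and 0 reads, so the number of reads depends on the transcript used. Per mapped read, 3 reads against 27 gave a ratio of 0.130 with a 95% exact (Clopper-Pearson) interval of 0.025 to 0.424. For a transcript of intermediate length, with 2 reads against 18, the interval was 0.015 to 0.545. With 1 read against 9, the smallest whole numbers that fit, the interval was 0.003 to 0.941. That would need a length below the shortest coding transcript. These intervals cover counting error between these libraries and not the spread between mice. Since *Rnf43* was chosen with these values in view, they describe the precision of the ratio and are no test of the genotypes.

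**Figure D1:**
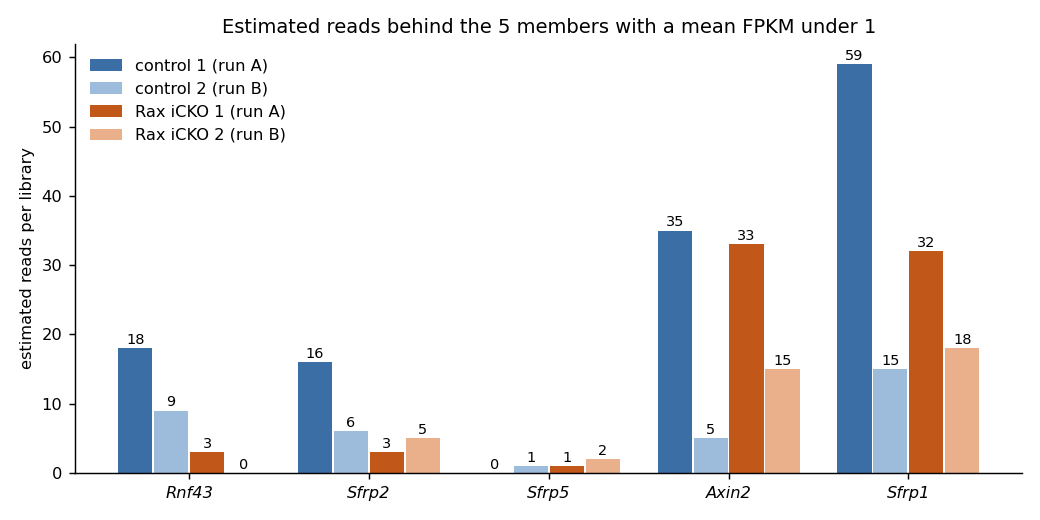
Estimated reads per library (vertical axis, linear from 0) for the 5 genes with a mean under 1 FPKM, with the longest annotated coding transcript as the length, and 1 bar per library with its number on top. *Rnf43* goes from 18 and 9 reads in the controls to 3 and 0 in *Rax* iCKO, and *Sfrp5* never passes 2 reads.

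*Znrf3* (chr11:5276329-5444847, minus strand), the homolog of Rnf43 with the same activity on Frizzled, was the more abundant of the pair. It was at 4.74 and 2.01 FPKM in control 1 and control 2 and at 4.62 and 1.39 FPKM in *Rax* iCKO 1 and *Rax* iCKO 2. The 2 high libraries were those of run A and the 2 low ones those of run B, so the genotypes overlapped. The means were 3.38 ± 1.93 (SD, n = 2) FPKM in control and 3.01 ± 2.29 (SD, n = 2) FPKM in *Rax* iCKO, and the log2 difference of -0.18 (standard error 0.52) was smaller than its own error.

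The secreted inhibitors spanned the whole range of levels. *Dkk3* (chr7:112116019-112159482, minus strand), a divergent Dickkopf protein that does not bind Lrp6 as the classical ones do, was at 1608 and 1078 FPKM in control 1 and control 2 and at 1098 and 1046 FPKM in *Rax* iCKO 1 and *Rax* iCKO 2. Control 1 stood above the other 3 libraries, which lay close together, and the genotypes overlapped. *Dkk3* ranked 29 of 24322 symbols by its control mean, 1343 ± 375 (SD, n = 2) FPKM, against 1072 ± 37.3 (SD, n = 2) FPKM in *Rax* iCKO, a log2 difference of -0.30 (standard error 0.37). The difference was -0.55 within run A and -0.04 within run B. It was -0.01 without control 1 and 0.00 with quantile normalization. The sum of the 12 Müller glial markers moved in the same direction, from 16640 and 13180 FPKM in the controls to 11240 and 11520 FPKM in *Rax* iCKO. Set against that sum, *Dkk3* came to 9.67% and 8.18% in control 1 and control 2 and to 9.77% and 9.08% in *Rax* iCKO 1 and *Rax* iCKO 2. The part of the marker sum in the *Dkk3* values was not tested.

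The Frizzled-related proteins carry the ligand-binding domain of a Frizzled receptor without its membrane part, and *Sfrp1*, *Sfrp2* and *Sfrp5* were at or below 1.11 FPKM in all 4 libraries. *Sfrp2* (chr3:83765750-83774314, plus strand) was at 0.698 and 0.359 FPKM in control 1 and control 2 and at 0.176 and 0.298 FPKM in *Rax* iCKO 1 and *Rax* iCKO 2. The *Rax* iCKO libraries were again the 2 lowest, by a wide gap within run A, -0.53 in log2(FPKM + 1), and a small gap within run B, -0.07. In reads these values were 16 and 6 in the controls and 3 and 5 in *Rax* iCKO, so control 2 and *Rax* iCKO 2 were 1 read apart. The means were 0.528 ± 0.240 (SD, n = 2) FPKM in control and 0.237 ± 0.0860 (SD, n = 2) FPKM in *Rax* iCKO, with a ratio of 0.449 and a log2 difference of -0.30 (standard error 0.16).

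*Sfrp1* (chr8:23411383-23449632, plus strand) was at 1.11 and 0.387 FPKM in control 1 and control 2 and at 0.812 and 0.463 FPKM in *Rax* iCKO 1 and *Rax* iCKO 2, or 59, 15, 32 and 18 reads. Both run A libraries were higher than both run B libraries, and the genotypes overlapped, with a log2 difference of -0.07 (standard error 0.26). *Sfrp5* (chr19:42197971-42202252, minus strand) was at 0 in control 1, 0.0634 FPKM in control 2, 0.0623 FPKM in *Rax* iCKO 1 and 0.126 FPKM in *Rax* iCKO 2, which are 0, 1, 1 and 2 reads. At this depth a difference in *Sfrp5* was not detectable and no fold is given.

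Of the receptors, *Fzd5* (chr1:64730558-64737750, minus strand), a Frizzled known from the early eye field and its progenitors, was the most abundant. It was at 14.8 and 4.68 FPKM in control 1 and control 2 and at 11.5 and 6.66 FPKM in *Rax* iCKO 1 and *Rax* iCKO 2. The direction of the genotype difference turned over between the runs, -0.34 within run A and 0.43 within run B, and the pooled difference was 0.05 (standard error 0.52) around means of 9.75 ± 7.17 and 9.10 ± 3.45 (SD, n = 2 each) FPKM. *Fzd4* (chr7:89404366-89410110, plus strand), the receptor of norrin in retinal vessels, was at 1.94, 1.45, 1.70 and 1.39 FPKM in control 1, control 2, *Rax* iCKO 1 and *Rax* iCKO 2, with a log2 difference of -0.08 (standard error 0.29). *Lrp6* (chr6:134446476-134566913, minus strand), the Wnt co-receptor, was at 2.05 and 1.23 FPKM in the controls and at 2.11 and 1.23 FPKM in *Rax* iCKO, in the same order of runs. Its log2 difference was 0.01 (standard error 0.34), with 0.03 within run A and -0.00 within run B, so the 2 mice of each run were nearly equal. The genotypes overlapped in all 3 receptors.

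*Axin2* (chr11:108917828-108950783, plus strand) is both a scaffold of the destruction complex and a widely used readout of β-catenin activity. It was at 0.677 and 0.133 FPKM in control 1 and control 2 and at 0.861 and 0.397 FPKM in *Rax* iCKO 1 and *Rax* iCKO 2, or 35, 5, 33 and 15 reads. Within each run the *Rax* iCKO library was the higher, by 0.15 in run A and by 0.30 in run B on the log2(FPKM + 1) scale, but control 1 lay above *Rax* iCKO 2 and the genotypes overlapped. The log2 difference was 0.23 (standard error 0.25) around means of 0.405 ± 0.385 and 0.629 ± 0.328 (SD, n = 2 each) FPKM. The exons of *Axin2*, *Sfrp2* and *Fzd5* each overlap an antisense gene in GENCODE, none of which the tables list. The same holds for the targeted gene *Rax*, which overlaps *Raxos1*. The labels name a library kit that does not mark strand, so reads of these genes and of their antisense partners cannot be told apart.

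**Figure D2:**
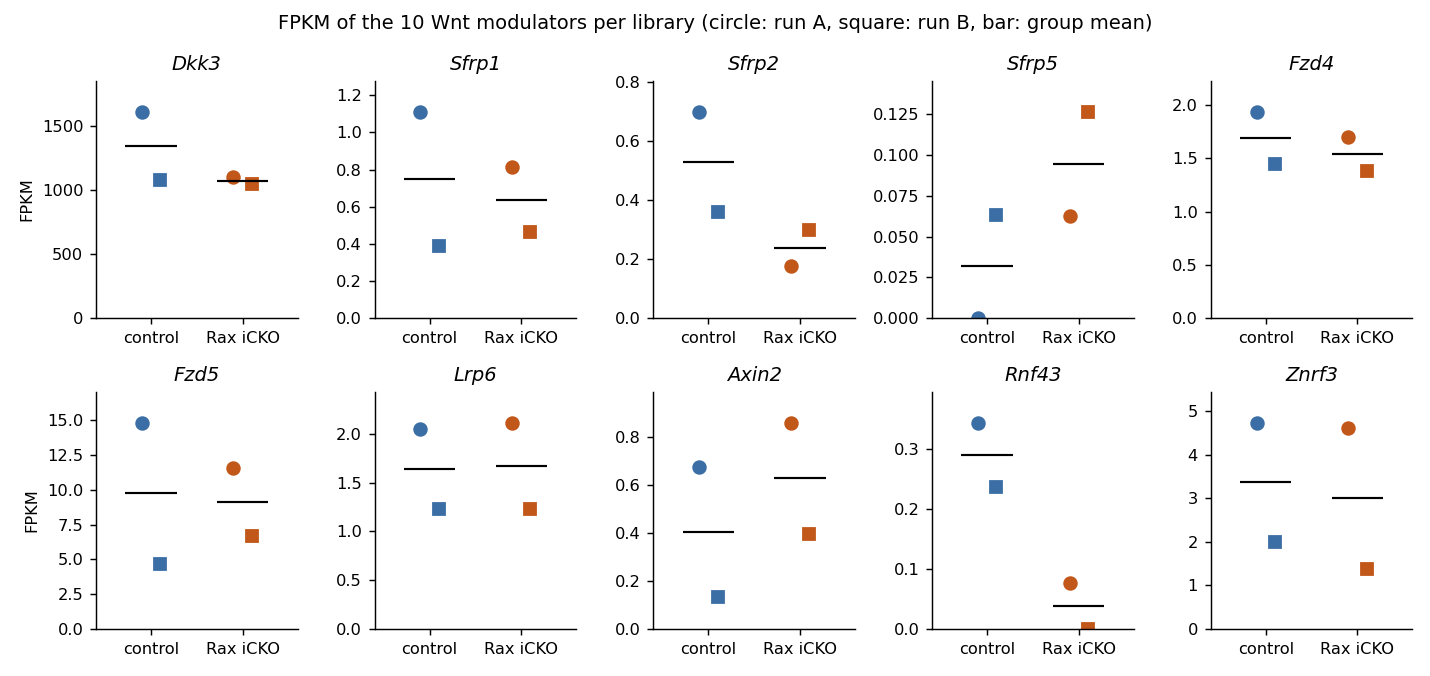
FPKM per library (vertical axes, linear from 0, a scale of its own for each gene) of the 10 genes in control and *Rax* iCKO, with circles for run A, squares for run B and a bar at the mean of the 2 mice. Only in *Rnf43* and *Sfrp2* do both *Rax* iCKO points lie below both control points, while in *Fzd5*, *Znrf3* and *Lrp6* the circles lie above the squares in both genotypes.

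Ordered by control mean, the levels ran from *Dkk3* through *Fzd5*, *Znrf3*, *Fzd4*, *Lrp6*, *Sfrp1*, *Sfrp2*, *Axin2* and *Rnf43* to *Sfrp5*. The ranges of the 2 controls were separate between *Dkk3* and *Fzd5*, *Znrf3* and *Fzd4*, *Lrp6* and *Sfrp1*, and *Rnf43* and *Sfrp5*, and overlapped between all other neighbors. Over the 4 libraries only *Dkk3* from *Fzd5* and *Lrp6* from *Sfrp1* stayed separate.

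Across the set, 2 of the 10 genes lay lower in both *Rax* iCKO libraries and 0 lay higher, against 14.5% lower and 13.7% higher of the 17865 genes with a mean FPKM above 0. The choice of genes used this contrast, so nothing is read from these counts. A mean of at least 1 FPKM over the 4 libraries was required for the fit across genes, and 5 of the 10 passed it, *Dkk3*, *Fzd4*, *Fzd5*, *Lrp6* and *Znrf3*. Their median log2 difference was -0.08, beside -0.00 over the 12363 genes fitted, and over all 10 genes in the fit without that minimum it was also -0.08, beside -0.01.

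By the fixed measure of likeness, the Euclidean distance between log2(FPKM + 1) profiles centered over the 4 libraries, the genes closest to *Rnf43* among those fitted were *Rhoj* (distance 0.023), *Idh1* (0.029) and *Tbc1d8b* (0.029). *Rhoj* was at 15.4 and 14.4 FPKM in the controls and at 12.2 and 11.3 FPKM in *Rax* iCKO, and *Idh1* was at 78.8 and 73.0 against 62.0 and 59.0 FPKM. The choice by likeness fixed the order of their libraries. The likeness is in log2(FPKM + 1) differences and not in ratios, since *Rhoj* and *Idh1* had a *Rax* iCKO mean of 0.793 and 0.797 times that of control, against 0.133 for *Rnf43*.

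More of the 10 genes were ordered by the run of mouse numbers than by the genotype. Of the 10, 7 (*Dkk3*, *Sfrp1*, *Fzd4*, *Fzd5*, *Lrp6*, *Axin2* and *Znrf3*) were higher in both run A libraries than in both run B libraries and 1, *Sfrp5*, was higher in both run B libraries, against 23.3% and 23.6% of the 17865 genes with a mean above 0. The run was not used to choose the genes and was looked at after their values had been seen. In limma, a linear model with a moderated variance, with run and genotype as terms, *Fzd5* was higher in run A by 1.09 on the log2(FPKM + 1) scale (standard error 0.22, p adjusted over 12363 genes by Benjamini-Hochberg 0.00632, higher in both pairs of mice). *Znrf3* was higher in run A by 1.08 (standard error 0.24, adjusted limma p 0.0111, higher in both pairs). Over all fitted genes, 8.88% were called higher in run A and 9.9% higher in run B. The calls on *Fzd5* and *Znrf3* were lost when the minimum of 1 FPKM was dropped, with adjusted limma p of 0.0563 and 0.0632. The other 3 of the 5 fitted genes did not pass, with run differences of 0.32 (standard error 0.18, adjusted limma p 0.218) for *Dkk3*, 0.47 (0.26, 0.237) for *Lrp6* and 0.22 (0.27, 0.591) for *Fzd4*.

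Among the genes under that minimum, the mean FPKM of run A over that of run B was 2.91 for *Axin2* and 2.26 for *Sfrp1*, against 1.79 for *Rnf43* and 1.33 for *Sfrp2*, where the runs overlapped. Marker lists of several cell types were also set beside the runs, and no list was tested. For comparison, 23.3% of genes with a mean above 0 were higher in both run A libraries and 23.6% in both run B libraries. Of 7 bipolar markers, 4 were higher in both run B libraries and 0 in run A. Of 6 cone markers, 3 were higher in both run B libraries and 0 in run A. Of 12 Müller glial markers, 6 were higher in both run A libraries and 0 in run B. The 6 endothelial markers summed to 490.3 and 406 FPKM in control 1 and *Rax* iCKO 1 and to 244 and 257 FPKM in control 2 and *Rax* iCKO 2, nearly all of it *Kdr*, with 4 of the 6 at a mean under 1 FPKM and 2 of the 6 higher in both run A libraries. The 5 pericyte markers summed to 26.7 and 24.4 FPKM in run A and to 11.03 and 13.2 FPKM in run B, with 4 of the 5 higher in run A, but 4 of the 5 had a mean under 1 FPKM and the sums without *Pdgfrb* were only 0.767 to 2.96 FPKM. Of the 6 microglial markers 3 were higher in run A, but their sums overlapped between the runs. The sums were 15.5 and 30.3 FPKM in control 1 and *Rax* iCKO 1 and 17.6 and 3.31 FPKM in control 2 and *Rax* iCKO 2. Of the 6 amacrine markers 3 were also higher in run A, with sums of 8.38 and 10.3 FPKM against 6.42 and 4.47 FPKM. The part of these cell types in the run differences of the Wnt genes was not tested.

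**Figure D3:**
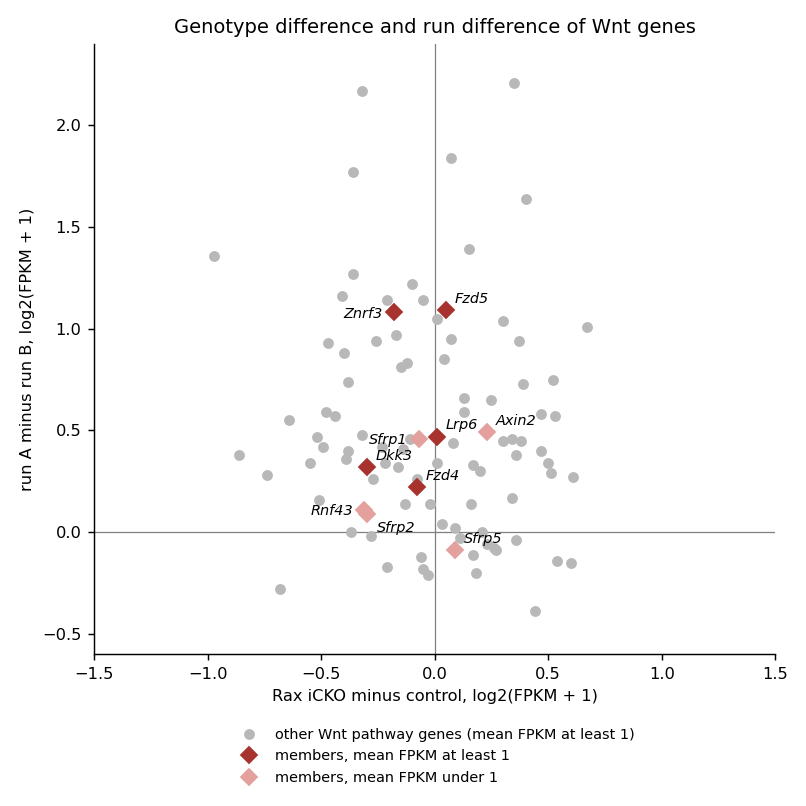
Genotype difference (horizontal axis, *Rax* iCKO minus control) against run difference (vertical axis, run A minus run B), both in log2(FPKM + 1), with the 10 genes as labeled diamonds, pale where the mean was under 1 FPKM, and the 87 other fitted Wnt genes as gray points. *Fzd5* and *Znrf3* lie near 1.09 and 1.08 on the vertical axis and at 0.05 and -0.18 on the horizontal one. *Rnf43*, *Sfrp2* and *Dkk3* lie near -0.31, -0.30 and -0.30 on the horizontal axis, and in *Dkk3* the genotypes overlap.

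The rest of the pathway was taken from a list of 136 genes by role, of which 135 were in the tables and 87 had a mean of at least 1 FPKM. None of the 87 passed the limma test between the genotypes (p adjusted over all 12363 genes), where 0.0243% of all fitted genes did. At an unadjusted limma p under 0.05, 2 were higher in *Rax* iCKO and 3 lower, where 2.86% of all fitted genes were past it in either direction and 1.6% were lower. Both *Rax* iCKO libraries lay above both controls in 16 of the 87 and below in 13, against 15.4% and 14.1% of all fitted genes, and the median log2 difference was 0.01. With the run as a block, 0 of the 87 were called, where 0.574% of all fitted genes were. *Rax*, the targeted gene, did not pass the fit without the block either (-0.82, standard error 0.21, unadjusted limma p 0.00859). It passed with the block (adjusted limma p 0.0223). The lack of calls among the 87 therefore does not show that these genes were unchanged. With 2 mice in each genotype these tests measure only the spread between these mice.

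Of the 20 ligands, 17 had a mean under 1 FPKM over the 4 libraries. *Ndp*, norrin, a Fzd4 ligand unrelated in sequence to Wnts and made by Müller glia for the retinal vessels, was at 32.3 and 37.2 FPKM in the controls and at 18.6 and 24.2 FPKM in *Rax* iCKO, a log2 difference of -0.68 (standard error 0.23, unadjusted limma p 0.0245). *Wnt5b* was at 9.38 and 6.35 FPKM in the controls and at 5.91 and 3.53 FPKM in *Rax* iCKO (-0.64, standard error 0.33). *Wnt5a*, its close relative and a noncanonical ligand, was in the opposite order, at 6.40 and 5.06 FPKM in the controls and at 9.53 and 7.62 FPKM in *Rax* iCKO (0.51, standard error 0.26).

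Of the 7 fitted genes for secreted inhibitors and ligand release, 3 were lower in both *Rax* iCKO libraries and 1 was higher, against 14.1% and 15.4% of all fitted genes. *Frzb*, a Frizzled-related protein like the Sfrps above, was at 123 and 99.8 FPKM in the controls and at 86.6 and 66.0 FPKM in *Rax* iCKO (-0.55, standard error 0.24), far above *Sfrp1*, *Sfrp2* and *Sfrp5* in level. *Sfrp4* was at 7.51 and 9.27 FPKM in the controls and at 7.34 and 6.13 FPKM in *Rax* iCKO (-0.28, standard error 0.25). *Porcn*, the enzyme that attaches the lipid a Wnt needs for release, was at 61.3 and 59.8 FPKM in the controls and at 64.4 FPKM in both *Rax* iCKO libraries.

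Of the 14 fitted receptors and co-receptors, 2 were lower in both *Rax* iCKO libraries and 0 higher, where 14.1% and 15.4% of all fitted genes were. *Tspan12*, a tetraspanin that works with norrin and Fzd4, was at 37.9 and 34.2 FPKM in the controls and at 32.6 and 19.7 FPKM in *Rax* iCKO (-0.49, standard error 0.28), and *Fzd2* was at 3.37 and 2.29 against 2.22 and 1.596 FPKM (-0.39, standard error 0.31). The glypicans *Gpc3* and *Gpc4*, heparan sulfate proteoglycans and the most abundant of the group, overlapped between the genotypes, with log2 differences of -0.13 and -0.23. The R-spondin receptor *Lgr4*, which acts against Rnf43 and Znrf3, was at 20.9 and 13.3 FPKM in the controls and at 22.3 and 10.3 FPKM in *Rax* iCKO. Both run A libraries of *Lgr4* were high, as those of *Znrf3* were, and its run difference of 0.83 passed the limma test (adjusted p 0.00823). *Lgr5* was at 0.696, 0.883, 0.704 and 0.214 FPKM in control 1, control 2, *Rax* iCKO 1 and *Rax* iCKO 2.

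In the cytoplasm, 9 of 25 fitted genes of the destruction complex and its partners were higher in both *Rax* iCKO libraries and 0 lower, where 15.4% and 14.1% of all fitted genes were, and none passed the test. The median log2 difference of the 25 was 0.21. *Apc*, the scaffold that gives the complex its hold on β-catenin, was at 7.15 and 5.96 FPKM in the controls and at 7.69 and 9.80 FPKM in *Rax* iCKO (0.36, standard error 0.26), and *Dact1*, a partner of Dishevelled, was at 8.06 and 4.08 against 8.10 and 9.10 FPKM (0.50, standard error 0.34). The most abundant of the group, the phosphatase scaffold *Ppp2r1a* and the kinase *Csnk1a1*, had differences of -0.06 and 0.17.

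Of the 19 fitted nuclear factors, 2 were higher and 3 lower in both *Rax* iCKO libraries, shares near the 15.4% and 14.1% of all fitted genes. *Tle2*, a Groucho corepressor, was at 17.7 and 21.95 FPKM in the controls and at 30.3 and 30.6 FPKM in *Rax* iCKO (0.60, standard error 0.21, unadjusted limma p 0.0309). *Lef1*, a partner of β-catenin on DNA, was at 4.61 and 2.94 FPKM in the controls and at 2.81 and 1.84 FPKM in *Rax* iCKO (-0.52, standard error 0.32). *Ctnnbip1*, which blocks the binding of β-catenin to Tcf, was at 74.5 and 65.7 against 50.5 and 57.4 FPKM (-0.37, standard error 0.21), and the corepressor *Aes* differed by -0.03.

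Of the 7 fitted target genes, 3 were lower in both *Rax* iCKO libraries and 1 was higher, where 14.1% and 15.4% of all fitted genes were, and none passed the test. The median log2 difference of the 7 was -0.51. *Ccnd1*, cyclin D1 of the G1 phase, was at 16.5 and 11.8 FPKM in the controls and at 8.19 and 6.42 FPKM in *Rax* iCKO (-0.86, standard error 0.27, unadjusted limma p 0.0193). *Bambi*, a pseudoreceptor that dampens TGF-β signaling, was at 23.4 and 22.6 against 16.2 and 11.04 FPKM (-0.74, standard error 0.25, unadjusted limma p 0.0265). *Id2*, an inhibitor of basic helix-loop-helix factors, was at 355 and 321 against 251 and 222 FPKM (-0.51, standard error 0.24). These 3 genes are also controlled by pathways other than Wnt. *Nkd1*, a feedback inhibitor that acts on Dishevelled, overlapped between the genotypes, with a difference of -0.48, and its difference between the runs passed the limma test, higher in run A (adjusted p 0.0137).

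Of the 11 fitted planar polarity genes, which serve the branch of the pathway without β-catenin, 2 were higher in both *Rax* iCKO libraries and 0 lower, beside 15.4% and 14.1% of all fitted genes. *Prickle2* was at 9.15 and 6.13 FPKM in the controls and at 12.1 and 11.8 FPKM in *Rax* iCKO (0.61, standard error 0.27), and *Ankrd6*, the Diversin gene, was at 13.8 and 16.6 against 22.4 and 22.7 FPKM (0.54, standard error 0.22, unadjusted limma p 0.0453). *Fuz* differed by 0.01.

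**Figure D4:**
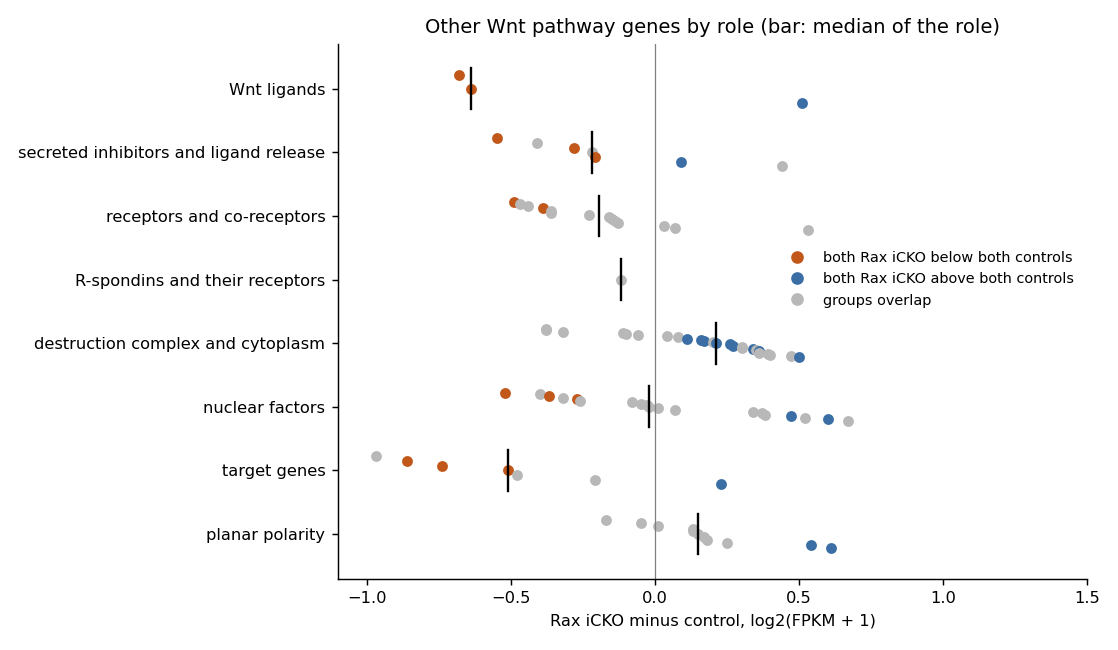
Difference in log2(FPKM + 1), *Rax* iCKO minus control, of the 87 other fitted Wnt pathway genes, 1 point per gene in 8 rows by role, with a bar at each row's median. The bars lie at -0.64 for ligands and -0.51 for target genes and at 0.21 for the destruction complex, and points are blue where both *Rax* iCKO libraries were the higher, orange where both were the lower and gray where the genotypes overlap.

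The other pathway genes were also compared between the runs. Of the 87 genes, 51 were higher in both run A libraries and 2 in both run B libraries, against 26.8% and 29.1% of all fitted genes. The limma test called 30 of the 87 higher in run A and 0 higher in run B, where 8.88% and 9.9% of all fitted genes were called. Of these 30 calls, 15 remained when the minimum of 1 FPKM was dropped. By role, the genes higher in both run A libraries were 15 of 25 in the destruction complex, 13 of 19 nuclear factors, 10 of 14 receptors, 7 of 11 planar polarity genes, 3 of 7 target genes, 2 of 7 secreted inhibitors, 1 of 1 R-spondin receptor and 0 of 3 ligands. Differences between the roles were not tested.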

How the data were processed

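mTFP-positive retinal cells of 4 mice were measured by RNA-seq, with genotypes taken from the labels. The authors mapped single-end reads of 101 bases to mm10 and deposited, for each library, a table with 1 FPKM value per gene. The submitters' processing notes name TopHat2 2.1.1, Bowtie2 2.2.8, SAMtools 0.1.18 and Cuffdiff 2.2.1, whereas the paper names other versions and Cufflinks. Strand counting is not given in the sources used here. No scaling was added to the FPKM, so the values of all genes depend on the abundant ones of the same library.

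The genotypes were compared on log2(FPKM + 1) by lmFit and trended eBayes (limma 3.58.1, R 4.3.3). The fit held the 12363 genes with a mean of at least 1 FPKM and gave two-sided p-values and Benjamini-Hochberg adjustment. Lower genes were taken, untested, from the same fit without that minimum. Values given as standard errors come from these fits. The steps were tested on simulated data. An exact permutation test of 2 mice against 2 cannot give a two-sided p under 0.333, so none was run. Depth was estimated from 476 genes, and 92.6% of 2310 genes under 0.5 FPKM could be fitted with whole reads within 0.1 read. Up to 20 reads were tried for each gene, so values that are not whole reads can also fit. That share therefore does not show that the read numbers are right. Since the read numbers are estimates, they entered no test between the genotypes. Intervals on reads cover counting error only. Coordinates are from RefSeq on GRCm38 and transcript lengths from GENCODE.

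The 10 genes and the pathway and marker lists were chosen with earlier results of these data known. From each role, the text names the 2 most abundant genes, the 2 fitted genes with the largest difference among those whose genotypes did not overlap, and any with an adjusted p under 0.05, and for *Rnf43* the 3 nearest profiles. The bipolar marker *Trpm1* was named after its values were seen. Alternatives were a pseudocount of 0.1, no minimum, a minimum of 5 FPKM, equal medians, quantile normalization, a block by run, eBayes without the trend, and leaving out each mouse.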

Additional observations from a re-analysis of the deposited data

How the results depend on the processing

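With 2 mice per genotype and few reads on *Rnf43*, *Sfrp2*, *Sfrp5* and *Axin2*, depth limits what can be said of these genes. Over all genes, limma called 1 higher and 2 lower in *Rax* iCKO, against 0 and 0 without a minimum or with a minimum of 5 FPKM, 2 higher with quantile normalization, 3 higher with equal medians, 24 and 47 with a replicate block by run, and 7 to 14 higher and 5 to 12 lower when each mouse was left out, where a lone mouse is assumed to vary like the other genotype. The Wnt pathway list had 0 genes called in every one of these, block included. The labels do not say that a run is a pairing, and with 2 pairs this could not be settled. The median log2 difference of the fitted members went from -0.58 without control 2 to 0.26 without *Rax* iCKO 2. Leaving out 1 mouse turned the sign in *Sfrp1* (-0.37 to 0.23), *Fzd4* (-0.21 to 0.05), *Fzd5* (-0.69 to 0.79), *Lrp6* (-0.23 to 0.26), *Axin2* (-0.06 to 0.51) and *Znrf3* (-0.80 to 0.44). The sign did not turn in *Rnf43* (-0.37 to -0.25), *Sfrp2* (-0.46 to -0.14), *Dkk3* (-0.58 to -0.01) or *Sfrp5*. In *Rnf43* and *Sfrp2* it could not turn, since their genotypes did not overlap, so nothing is read from it. *Sfrp5* rests on at most 2 reads in a library. With a pseudocount of 0.1, *Rnf43* differed by -1.54 and *Sfrp2* by -0.87. The other way, *Axin2* differed by 0.7, and *Sfrp5*, too low for a fold, also moved upward. With quantile normalization, 1 of the 10 members was higher and 3 lower without overlap, and 0 were higher in both run B libraries. The run term, added after the data were seen, called 410 genes higher in run A and 336 in run B without a minimum, 655 and 281 without a variance trend, and 1946 in run B with equal medians. *Dkk3* passed it only with quantile normalization (adjusted limma p 0.00719), under which its genotype difference went from -0.30 to 0.00. Among other named genes, none of them called, the sign turned in *Ppp2r1a* (0.11) and *Aes* (0.13) with quantile normalization, in *Fuz* (-0.01) with equal medians, and without 1 mouse in *Gpc3* (-0.30 to 0.04), *Gpc4* (-0.48 to 0.01), *Lgr4* (-0.64 to 0.40), *Aes* (up to 0.19) and *Fuz* (-0.19 to 0.21). The causes were not tested.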
